A study of Mus musculus with 2 samples.

Results

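Natural killer (NK) cells made up 193 of the 14421 barcodes of a single-cell RNA sequencing experiment in BALB/cAnNCrl mice with liver metastases of 4T1, a mouse mammary carcinoma line. They were chosen by a rule on unique molecular identifiers (UMIs, 1 per captured transcript): at least 2 UMIs summed over Ncr1, Klrb1c, Klre1 and Eomes, at most 1 over the CD3 chains Cd3d, Cd3e and Cd3g, at most 1 over the B cell receptor chains Cd79a and Cd79b, and a dominant hashtag, with at least 10 UMIs and 3 times the next. A barcode stands for a droplet and is called a cell below. There were 154 NK cells among 9591 barcodes of the library labelled liver and 39 among 4830 of the library labelled spleen. The rule rests on the transcripts themselves, so the high level of its 4 genes in these cells is a description and not a finding.

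All mice bore tumours and were studied 5 days after treatment, with 2 mice pooled per group; they had been bought at 7 to 8 weeks of age. The vehicle group, a low dose group and a high dose group of CBL0137 were compared, a DNA-binding compound that traps the histone chaperone FACT on chromatin. The amounts given as low and high dose are not stated in the labels. Each of the 2 libraries mixed all 3 groups, which were told apart by antibody hashtags. No group without a tumour was included, and every library held 1 pool of mice for each group. No statistical test of the groups was therefore possible within a library, and none was run across the 2 libraries. All intervals are exact 95% intervals and cover counting error only.

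The hashtags decide which treatment a cell is assigned to. Each tag is an oligonucleotide of 15 bases, read 5′ to 3′ and printed in capitals because every base of it is read:
A0301, vehicle: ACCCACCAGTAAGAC
A0305, low dose: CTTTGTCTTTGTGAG
A0310, high dose: CCGATTGTAACAGAC
The tags of the vehicle and the low dose differ at 11 of the 15 bases, and each of the other pairs at 10. The median NK cell of the library labelled liver carried 552.5 UMIs of its leading tag, 40.95 times the next, and the median of the library labelled spleen 835 UMIs, 57.94 times the next. HTODemux, a clustering-based hashtag caller, assigned fewer barcodes in the library labelled spleen, 865 in place of 2345 at the high dose, and 11 in place of 28 high dose NK cells, so that the account of this group below rests on the margin rule. Just inside the threshold the lowest ratios were 3.462 and 3.599, and just outside it the highest were 2.945 and 2.105. A further 7 and 3 barcodes met the transcript rule without a dominant tag and were left out. The libraries had 15 barcode sequences in common, none of which was an NK cell.

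The tissue labels are uncertain. Transcripts of the liver stood in the library labelled spleen, which held 1157 UMIs of albumin (Alb), 930 of Apoa1 and 4602 of the Kupffer cell lectin Clec4f over all barcodes, against 0, 6 and 0 in the library labelled liver. The names of the deposited files contradict the sample labels in the same direction. The libraries are therefore called only by their labels, and no result below is read as belonging to liver or to spleen. The methods describe CD11b+ bead-isolated cells whereas the labels describe leukocytes, and both libraries held T and B cells.

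NK cells are lymphocytes that kill without a rearranged antigen receptor. They weigh activating receptors such as NKp46 (Ncr1) and NKG2D (Klrk1) against inhibitory receptors for MHC class I, release granules with perforin (Prf1) and granzymes, and secrete chemokines such as CCL5. T-bet (Tbx21) and Eomes guide their maturation, and in the liver they lie beside a related tissue-resident cell, the ILC1, which lacks Eomes and carries Cxcr6 and Itga1.

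The label was checked against transcripts that the rule did not use. Levels are given as UMIs summed over the cells of a group per 1000000 UMIs of that group (CPM), which counts transcripts and does not depend on gene length. In the library labelled liver, granzyme A (Gzma, chr13:113093825-113100981 on the minus strand of mm10) stood at 12500 CPM in NK cells, against 8.66 in T cells, 0.943 in B cells and 0.735 in neutrophils. It was detected in 96.1% of NK cells, and after thinning every cell to 500 UMIs in 92.21%, against 0.363% of T cells and 0.0739% of B cells. Perforin (Prf1, chr10:61297833-61304680) stood at 1028 CPM in NK cells and 24.97 in T cells. The chemokine Ccl5 stood at 22610 and 129 CPM, and the granule membrane protein gene Nkg7 at 3243 and 126 CPM. T cells were not limited in neutrophil transcripts, and 475 of the 3032 (15.67%) held 50 or more UMIs of Retnlg, Csf3r, S100a8 and S100a9; without them Gzma stood at 14.58, Prf1 at 44.11, Ccl5 at 226.7 and Nkg7 at 200.5 CPM in T cells. The T cell receptor constant genes separated in their own way: Trbc1 was as high in NK cells as in T cells (419 and 445 CPM), whereas Trac stood at 11.7 against 308 CPM and Cd8a had no UMI in 154 NK cells. The ILC1 markers Cxcr6 and Itga1 and the rest of a list of 10 together gave 216, 201 and 314 CPM in the vehicle, low dose and high dose groups, with Il7r or Tmem176b the most abundant and a median of 0 UMIs per cell.

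**Figure D1:**
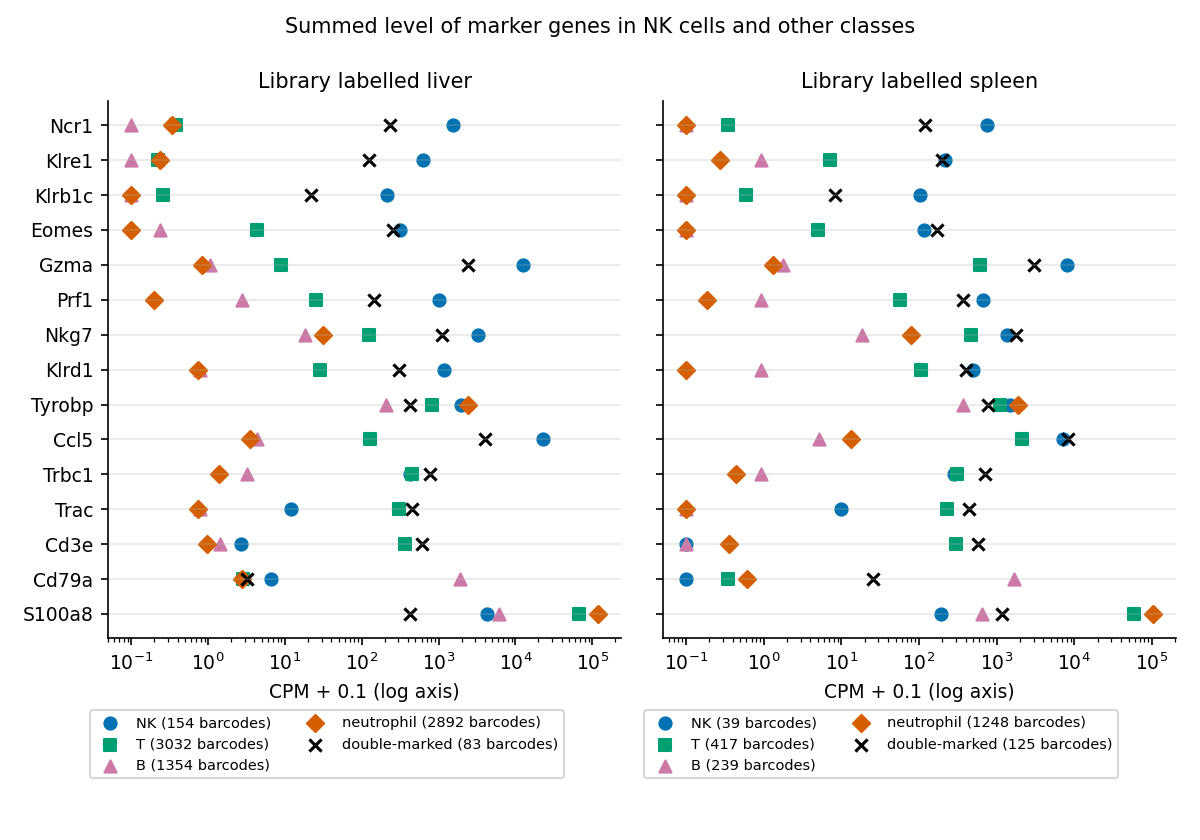
Levels (CPM with 0.1 added, log axis) of NK, T, B and neutrophil genes in the NK, T, B, neutrophil and double-marked cells of each library, summed over groups. Gzma, Prf1, Nkg7 and Ccl5 stand highest in NK cells of the library labelled liver, with Gzma at 12500 CPM against 8.66 in T cells, and the gap is smaller in the library labelled spleen, with Gzma at 7948 against 607 CPM.

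In the library labelled spleen the separation was narrower. Gzma stood at 7948 CPM in NK cells and 607 CPM in T cells there, Ccl5 at 7078 and 2124 CPM and Gzmb at 2281 and 172 CPM. Without the 23.98% of T cells that held 50 or more neutrophil UMIs, the T cell levels were 1008 CPM for Gzma, 3536 for Ccl5 and 290.7 for Gzmb. Barcodes with both at least 2 NK rule UMIs and at least 2 CD3 UMIs, called double-marked, numbered 83 in the library labelled liver. The library labelled spleen had 125, where they outnumbered the 39 NK cells. Their Gzma level was 2434 and 3061 CPM, and Cd8a stood at 293 and 482 CPM in them. They were not counted as NK cells.

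Near the threshold of the rule few cells were found in the library labelled liver. Of barcodes with a sum of 1 rule UMI there were 20, 5 of them with Gzma; with a sum of 2 there were 5, 3 with Gzma; with a sum of 3 there were 7, 6 with Gzma; and 142 had 4 or more, 139 with Gzma. In the library labelled spleen 11 barcodes had a sum of 1, none with Gzma, 3 had a sum of 2, 4 had a sum of 3 and 32 had 4 or more. A few NK cells carried much RNA of other kinds. In 3 of them the rule genes made up less than 0.05% of the UMIs: a vehicle cell of the library labelled liver with 13088 UMIs, 318 of Lyz2 and 288 of Cd74, and 2 high dose cells of the library labelled spleen with 126369 and 33529 UMIs, which together held 44.47% of the UMIs of their group. Counts without them are given beside the main calls that they change.

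The NK share of assigned cells was higher in both CBL0137 groups than in the vehicle group of the library labelled liver. It was 37 of 3360 (1.10%, 0.777 to 1.51) with the vehicle, 62 of 3408 (1.82%, 1.40 to 2.33) at the low dose and 55 of 2143 (2.57%, 1.94 to 3.33) at the high dose. The differences from the vehicle group were 1.47 percentage points (0.714 to 2.29) at the high dose and 0.718 points (0.128 to 1.32) at the low dose, where the interval included 0 once NK cells with 10 or more S100a8 and S100a9 UMIs, both neutrophil genes, were left out (0.4875, -0.0181 to 1.004). Both comparisons share the vehicle cells.

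Neutrophils made up 42.86%, 36.44% and 9.80% of the assigned cells of the same groups, so their share fell in the order in which the NK share rose. Among cells that were not neutrophils, NK cells made up 1.93%, 2.86% and 2.85%, and the differences of 0.918 points (-0.0819 to 1.93) and 0.935 points (-0.0416 to 1.91) had intervals that included 0. Counted against T cells, there were 4.53, 5.49 and 5.07 NK cells per 100 T cells, so that the order of the groups was no longer that of the dose. T cells with 50 or more neutrophil UMIs were 22.64%, 20.62% and 5.25% of all T cells of these groups, and without them there were 5.85, 6.91 and 5.35 NK cells per 100 T cells. With all such neutrophil-marked cells other than NK cells left out of the denominator, whatever their other markers, the NK share was 2.18%, 3.249% and 2.943%, again with intervals of the difference that included 0 (-0.322 to 1.843 at the high dose and -0.0361 to 2.171 at the low dose). The part of the neutrophil share in the NK share was not tested.

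The library labelled spleen held 2 NK cells among 820 assigned vehicle cells (0.244%, 0.0296 to 0.878), 9 among 1318 low dose cells (0.683%, 0.313 to 1.29) and 28 among 2345 high dose cells (1.19%, 0.795 to 1.72). The high dose share was 0.950 points above that of the vehicle (0.201 to 1.52), or 0.7851 (-0.2013 to 1.839) when hashtags were called by HTODemux, and the low dose share 0.439 points (-0.296 to 1.09). Per 100 T cells there were 3.23, 7.26 and 12.1 NK cells, and 5.405, 11.39 and 13.93 when T cells with 50 or more neutrophil UMIs were left out. Neutrophils were 46.83%, 47.95% and 9.89% of these groups, and among the other cells the high dose difference was 0.866 points (-0.402 to 1.58). In each library the order of the shares of assigned cells was vehicle, low dose, high dose, and in each the low and high dose intervals overlapped.

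**Figure D2:**
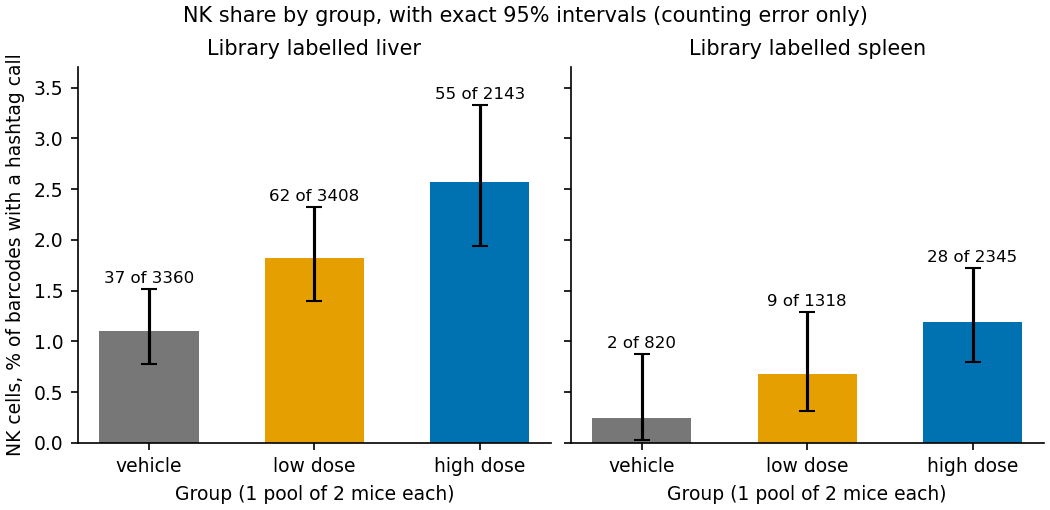
NK cells as a percentage of assigned cells by group and library, with exact 95% intervals (counting error only) and the number of NK cells. The bars of the library labelled liver run from 1.10% to 2.57% and those of the library labelled spleen from 0.244% to 1.19%, lowest with the vehicle in both.

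Depth behind the NK cells of the library labelled liver was alike in the 3 groups, with medians of 3636, 3449 and 4067 UMIs, 1675, 1634.5 and 1820 genes and 2.65%, 2.56% and 2.38% mitochondrial UMIs, and sums of 194667, 314172 and 257831 UMIs. The sums of the library labelled spleen were 20900, 22903 and 359554 UMIs. With 2 and 9 cells, its vehicle and low dose groups entered no ratio, and the ratios of treated to vehicle cells below are those of the library labelled liver, on a log2 scale with the interval in parentheses. A gene was counted as higher or lower when its CPM differed 2-fold or more. Among 1489 genes that reached 50 UMIs in the 2 groups together, 31 (2.08%) were higher and 45 (3.02%) lower at the high dose than with the vehicle, and of 1644 at the low dose 23 (1.40%) were higher and 44 (2.68%) lower. Without the vehicle cell rich in Lyz2, 26 were lower at the high dose and 26 at the low dose. Without the cells with 10 or more S100a8 and S100a9 UMIs, 7 of 893 were higher and 9 lower at the high dose, and 9 of 765 higher and 5 lower at the low dose. For the gene lists the minimum was 20 UMIs, where 225 of 3665 genes (6.14%) were higher and 146 (3.98%) lower at the high dose, with a median log2 ratio of 0.11, and 176 of 3905 (4.51%) higher and 162 (4.15%) lower at the low dose, with a median of 0.05.

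The killing machinery was abundant in every group, and the summed levels of granzymes A and B were higher at the high dose than with the vehicle. Gzma stood at 11080 CPM with the vehicle, 11070 at the low dose and 15330 at the high dose, a log2 ratio of 0.47 (0.39 to 0.55) at the high dose and -0.001 at the low dose. Under the alternatives run the high dose ratio ranged from 0.195 to 0.621, beyond that interval. Gzma was detected in 37 of 37, 59 of 62 and 52 of 55 cells, and the median cell had 12530, 13250 and 15980 CPM, within ranges over cells that ran from 229 to 27320 with the vehicle and from 0 to 35650 at the high dose and so overlapped almost fully. Granzyme B (Gzmb, chr14:56258838-56262260) stood at 668, 611 and 923 CPM, a log2 ratio of 0.47 (0.15 to 0.79) at the high dose, but the median cell had 726.4, 421.1 and 719.7 CPM of Gzmb. Perforin (Prf1) stood at 1017, 894 and 1198 CPM, with a log2 ratio of 0.24 whose interval included 0 (-0.02 to 0.50); the median cell had 1051, 1044 and 967.5 CPM.

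Of the 24 genes of the cytotoxic granule list, 15 had at least 20 UMIs over high dose and vehicle cells, none was 2-fold higher and 1 was lower, and the median log2 ratio was 0.10. The lower gene was Lamp2, a lysosomal membrane protein, with 23, 14 and 11 UMIs; without the Lyz2-rich vehicle cell its log2 ratio was -0.75 and none of the 15 was lower. Srgn, the proteoglycan that packs granule proteins, stood at 539, 481 and 714 CPM (0.40 at the high dose, 0.05 to 0.76). Cma1, a mast cell type chymase that NK cells also carried here, ran against the granzymes, at 421, 334 and 237 CPM, a log2 ratio of -0.83 (-1.34 to -0.34) at the high dose. Gzmk, a further granzyme, had 11, 19 and 4 UMIs. At the low dose 17 genes of the list were measured, with none higher, 2 lower (none without the Lyz2-rich cell) and a median of -0.17.

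Among receptors, the NKp46 gene Ncr1, a gene of the rule, was more abundant in treated cells. It stood at 1125, 1544 and 1788 CPM, which is 0.67 (0.43 to 0.91) at the high dose and 0.46 at the low dose on the log2 scale. The other rule genes were close to the vehicle level: Klre1, a lectin-like receptor, stood at 668, 541 and 675 CPM, Klrb1c (NK1.1) at 200, 223 and 202 CPM and Eomes at 303, 312 and 337 CPM. These 4 chose the cells, so their values are given as a description only.

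The activating receptors and adaptors, a list of 25 genes, held 22 with at least 20 UMIs, of which 4 were 2-fold higher and 1 lower at the high dose, with a median of 0.22; at the low dose 21 were measured, with none higher, 1 lower and a median of -0.10. Without the Lyz2-rich vehicle cell 3 were higher and none lower at the high dose, and none lower at the low dose. The 4 were Cd160, Lat, Slamf7 and Cd247. Cd160, a receptor for HVEM and MHC class I molecules (chr3:96798763-96829351), had 5, 15 and 34 UMIs, or 25.7, 47.7 and 132 CPM, and was detected in 3 of 37, 8 of 62 and 15 of 55 cells. Its log2 ratio was 2.36 (1.00 to 4.07) at the high dose and 0.89 (-0.64 to 2.71) at the low dose. Without the cells that held 10 or more UMIs of the neutrophil genes S100a8 and S100a9, which left 27, 44 and 45 cells, these ratios were 1.22 and -2.81. Lat, a membrane adaptor of receptor signalling, had 2, 8 and 19 UMIs and was detected in 2, 6 and 16 cells, a log2 ratio of 2.84 (0.79 to 5.99) at the high dose. Slamf7, a self-ligand activating receptor, had 14, 35 and 44 UMIs (1.25, 0.35 to 2.23), and Cd247, the zeta chain that carries signals from NKp46 and CD16, had 12, 35 and 33 UMIs (1.05, 0.06 to 2.14, and 0.95 without the Lyz2-rich cell). In all 4 the low dose level lay between those of the vehicle and the high dose.

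The more abundant members of the list were closer to the vehicle. Klrd1 (CD94) stood at 1125, 1034 and 1377 CPM (0.29, 0.04 to 0.54), Klrk1 (NKG2D) at 991, 882 and 919 CPM (-0.11, -0.39 to 0.17), and the adaptor Tyrobp (DAP12) at 2183, 1735 and 2106 CPM (-0.05, -0.24 to 0.13). The lower gene was Fcgr3, which encodes CD16, with 35, 19 and 21 UMIs (-1.14, -1.997 to -0.322); without the vehicle cell that was rich in Lyz2 its log2 ratio was -0.43, and without the cells with 10 or more S100a8 and S100a9 UMIs 0.07.

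Of the 20 inhibitory receptors, 11 were measured, 1 was higher, 2 were lower and the median was 0.52 at the high dose, and at the low dose 8 were measured, with none higher, 1 lower and a median of -0.04; without the Lyz2-rich cell 1 of 10 was higher and 1 lower at the high dose, and none of 7 was higher or lower at the low dose. Klrc1 (NKG2A), the partner of CD94, stood at 139, 143 and 237 CPM (0.77, 0.10 to 1.48), and Klrg1, a receptor for cadherins on mature NK cells, at 159, 201 and 268 CPM (0.75, 0.12 to 1.41). Members of the Ly49 family differed in direction: Klra1 had 30, 33 and 13 UMIs (-1.61, -2.67 to -0.63), whereas Klra3 stood at 375, 414 and 454 CPM (0.28, -0.16 to 0.72) and Klra7 at 206, 328 and 295 CPM (0.52, -0.05 to 1.11). These receptor genes are close copies of each other, and how reads were shared among them is not known.

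Chemokines were led by Ccl5 (chr11:83525778-83530518), the most abundant of the NK secretory transcripts. It stood at 20660, 18370 and 29260 CPM, a log2 ratio of 0.50 (0.45 to 0.56) at the high dose and -0.17 at the low dose, and the median cell had 27330, 23510 and 31190 CPM. Under the alternatives run its high dose ratio ranged from 0.187 to 0.66, beyond that interval. Of 12 cytokines and chemokines 6 were measured and 1 was higher at the high dose. That gene, Ccl4, had 81, 160 and 272 UMIs (1.34, 0.98 to 1.72), but 1 cell held 53.09% of the vehicle UMIs and 1 cell 39.34% of the high dose UMIs, and as a mean over cells its levels were 646, 603 and 785 CPM; without the cells with 10 or more S100a8 and S100a9 UMIs its log2 ratio was -0.13. Interferon gamma (Ifng) had 9, 15 and 14 UMIs in 8, 11 and 8 cells, too few for a difference to be seen at this depth.

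At the low dose 2 of 8 measured cytokine genes were higher. Xcl1, the ligand of XCR1 on cross-presenting dendritic cells, had 2, 68 and 8 UMIs in 2, 9 and 8 cells, a log2 ratio of 4.397 (2.489 to 7.472) at the low dose, where 1 cell held 35.29% of the UMIs. Tgfb1 had 16, 53 and 24 UMIs in 11, 28 and 20 cells (1.04, 0.21 to 1.94).

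Trafficking receptors and integrins stayed close to the vehicle, with 1 higher and 1 lower of 17 measured at the high dose (median 0.16) and none higher, or 1 without the Lyz2-rich cell, and 1 lower of 17 at the low dose (median 0.13). Itga4, a chain of the integrin VLA-4, stood at 807, 859 and 923 CPM. Itgax (CD11c) was the higher gene, with 5, 16 and 26 UMIs in 5, 12 and 14 cells (1.97, 0.57 to 3.71), and the hyaluronan receptor Cd44 the lower, with 24, 23 and 13 UMIs (-1.29, -2.39 to -0.26).

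Of 16 transcription factors measured at the high dose, 2 were higher and 1 was lower, and of 15 at the low dose none was higher or lower. Without the Lyz2-rich cell 3 of 16 were higher and 1 was lower at the high dose, and 1 of 14 was higher at the low dose. The 2 higher genes, Tox and Bach2, each had 16 UMIs at the high dose and 5 with the vehicle, and their intervals included 0 (1.27, -0.24 to 3.08). Zeb2, which acts in terminal NK maturation, stood at 344, 595 and 555 CPM, that is 0.69 (0.26 to 1.13) at the high dose and 0.79 (0.38 to 1.22) at the low dose. Tbx21 stood at 123, 197 and 144 CPM (0.22, -0.56 to 1.02). Id2, which restrains other lymphocyte fates, stood at 1233, 993 and 1501 CPM, and Klf2, which keeps lymphocytes quiescent and recirculating, at 1104, 1117 and 1133 CPM. Prdm1 (Blimp-1) had 19, 18 and 10 UMIs and was the lower gene (-1.33, -2.60 to -0.15).

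Cytokine receptors were represented by the IL-15 and IL-2 receptor beta chain Il2rb, at 755, 719 and 962 CPM (0.35, 0.05 to 0.65). Of 28 receptor and SOCS genes 15 were measured, and the 1 that was higher at the high dose was Il7r, the IL-7 receptor (chr15:9505788-9530176), with 7, 38 and 46 UMIs (2.31, 1.15 to 3.703, and 1.75, 0.57 to 3.16, at the low dose). With no UMI of CD3 or CD79 allowed the low dose ratio was 0.613, and without the cells with 10 or more S100a8 and S100a9 UMIs the high dose ratio was 1.505. Its UMIs lay in few cells, 1 of 37, 7 of 62 and 6 of 55. Of the high dose cells, one with 12 UMIs of Il7r also held 902 globin UMIs. Another with 10 had 8 UMIs of the complement C1q genes, and one with 7 had 21.95% mitochondrial UMIs. Cells with at least 3 Il7r UMIs and fewer than 3 of Gzma numbered 1, 2 and 4, and some carried Ncr1 without Eomes or Klrb1c: a high dose cell of 4393 UMIs had 12 UMIs of Il7r, 9 of Ncr1 and 0 of Gzma, Eomes and Klrb1c, and a low dose cell of 3509 UMIs had 15 of Il7r, 7 of Ncr1 and 0 of Gzma, Eomes and Klrb1c. Cxcr6 was at 0 in both. The vehicle cell of this kind, of 3825 UMIs, had 7 UMIs of Il7r, 1 of Gzma and 8 of Ncr1, and also 6 of Klre1 and 1 of Klrb1c. These cells are not named further here.

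The survival gene Bcl2, an inhibitor of mitochondrial apoptosis (chr1:106538178-106714274), was lower in both treated groups. It stood at 740, 325 and 419 CPM and was detected in 35 of 37, 39 of 62 and 41 of 55 cells. The log2 ratio was -0.82 (-1.19 to -0.45) at the high dose and -1.19 (-1.57 to -0.81) at the low dose. Mcl1, which NK cells need for survival, stood at 324, 287 and 252 CPM (-0.36, -0.88 to 0.16). Of the 12 genes of the BCL2 family list 7 were measured at the high dose, none 2-fold higher or lower, and 6 at the low dose, with 1 lower.

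Transcripts of the cell cycle lay in few cells of every group. Summed over the 24 proliferation genes, 1 of 37, 3 of 62 and 3 of 55 cells reached 10000 CPM. The mitotic gene Top2a had 31, 96 and 26 UMIs in 3, 9 and 5 cells, Mki67 22, 51 and 45 UMIs in 3, 9 and 5 cells, and Pcna, the replication clamp, 12, 73 and 26 UMIs in 10, 20 and 15 cells. At the low dose 5 of 23 measured genes of the list were higher, none was lower and the median was 0.52. At the high dose 3 of 18 were higher, none was lower and the median was -0.05; Birc5 and Ube2c, both of mitosis, were among the 3, with 10, 38 and 31 and with 7, 41 and 24 UMIs. These calls turned on single cells: without the deepest cell of each group none of 14 was higher and 4 were lower at the high dose, with a median of -0.54, and without the Lyz2-rich vehicle cell 2 were higher and 1 was lower. At the low dose 2 of 20 were higher without the deepest cells. The histone variant gene H2afz, found in nearly every cell, stood at 1808, 2699 and 2533 CPM, which is 0.49 (0.30 to 0.68) at the high dose and 0.58 (0.40 to 0.76) at the low dose.

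Immediate early genes, which respond within minutes to receptor signals or to handling of tissue, stood lower in treated cells where they differed 2-fold. Of 14 measured, none was higher and 4 were lower at the high dose, and 5 were lower at the low dose, with medians of -0.23 and -0.53, and without the Lyz2-rich cell 3 of 13 were lower at each dose. Zfp36, whose product destabilises cytokine mRNA, had 38, 30 and 12 UMIs in 14, 18 and 9 cells (-2.07, -3.14 to -1.10, and -1.03, -1.77 to -0.30). Junb stood at 468, 353 and 272 CPM (-0.78, -1.25 to -0.32) and Ier2 at 324, 220 and 182 CPM (-0.83, -1.41 to -0.26). Jun had 21, 10 and 6 UMIs and Fos 35, 4 and 3 UMIs, of which 1 vehicle cell held 60.0%. Without the cells with 10 or more S100a8 and S100a9 UMIs, the Zfp36 ratio was 0.34 at the low dose, the Fos ratios were 0.81 and 1.09 at the high and low dose, and the Jun ratios were -1.039 and -0.077, from -2.21 and -1.76. Jund was level at 452, 465 and 477 CPM.

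**Figure D3:**
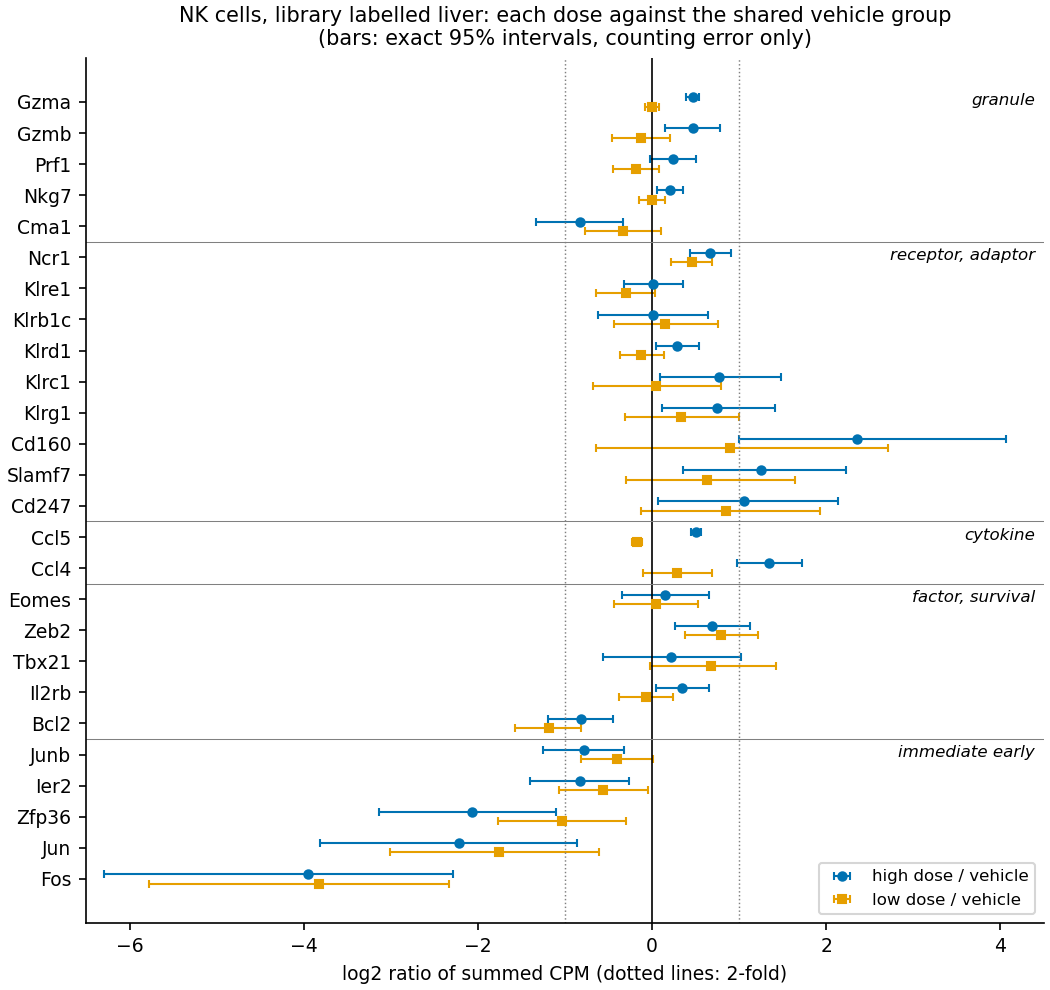
Log2 ratio of CPM to the vehicle group in NK cells of the library labelled liver for 26 genes in 5 blocks, high dose (55 cells) and low dose (62 cells) against the same 37 vehicle cells, with exact 95% intervals for counting error. Gzma and Ccl5 lie above 0 at the high dose with intervals that are narrow for counting error, as does Ncr1, a gene of the rule and so a description only. Cd160, Slamf7 and Cd247 are higher with wide intervals, and Bcl2, Zfp36, Jun and Fos lie below 0 at both doses, of which Zfp36 at the low dose, Jun at the low dose and Fos at both lie at -0.08 or above without the cells rich in S100a8 and S100a9.

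Of the genes that the study names in NK cells, 4 follow. It chose them on these samples, so that they are no independent evidence of a direction. Cd160 is given above. Cd244a (2B4), a receptor for CD48, stood at 226, 185 and 295 CPM (0.38, -0.17 to 0.95, and -0.29 at the low dose). Ccr2, a receptor for monocyte chemoattractants, stood at 426, 290 and 369 CPM (-0.21, -0.65 to 0.23), so that the vehicle group had the highest level. Socs3, an inhibitor of cytokine signalling (chr11:117966079-117970047), had 13, 13 and 1 UMIs in 5, 6 and 1 cells (-4.11, -9.51 to -1.37), which rests on few UMIs, and without the cells with 10 or more S100a8 and S100a9 UMIs the log2 ratio was -0.19. Of these 4, only Cd160 and Socs3 had intervals at the high dose that excluded 0.

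Genes near the reported actions of CBL0137 were at low counts in NK cells. The FACT subunits Ssrp1 and Supt16 had 24, 55 and 36 and 26, 60 and 45 UMIs, with log2 ratios at the high dose of 0.18 (-0.60 to 0.99) and 0.39 (-0.34 to 1.14). Of 5 histone chaperone genes measured, these included, none was higher and 1 was lower at the high dose, Asf1b with 14, 18 and 7 UMIs in 2, 4 and 3 cells (-1.41, and 0.224 without the cells with 10 or more S100a8 and S100a9 UMIs), and none of 5 was higher or lower at the low dose. Of the 8 NF-kB pathway genes measured, none was 2-fold higher or lower at either dose (medians -0.07 and -0.08); Nfkbia, the inhibitor that NF-kB itself induces, stood at 123, 140 and 124 CPM. The Z-nucleic acid sensor Zbp1 had 10, 12 and 15 UMIs, and Ripk1 17, 21 and 10 UMIs (-1.17, -2.46 to 0.04). All 5 measured p53 target genes lay within 2-fold at both doses, among them Bax at 170, 156 and 136 CPM. Interferon-stimulated genes were scarce: 8 were measured at the high dose, none higher and 1 lower, Ifi27l2a with 22, 6 and 6 UMIs (-2.28), and without the Lyz2-rich vehicle cell its ratio was -0.24 and none of 6 was lower. At the low dose none of 6 was higher and 2 were lower, with a median of -0.50, Ifi27l2a again and Xaf1 with 16 vehicle and 9 low dose UMIs (-1.52, -2.88 to -0.26); without the Lyz2-rich cell 1 of 5 was lower. Without the deepest cell of each group 2 of 6 were lower at the high dose, with a median of 0.20.

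Across all genes with at least 50 UMIs, the 10 that were most above the vehicle at the high dose and in the same direction at the low dose were Il7r, Phactr3, Ccdc88c, Car2, Azi2, Tnik, Ccl4, Phf5a, Cd7 and Rnaset2a, with log2 ratios from 2.31 to 1.25. Cd7, an immunoglobulin-family receptor of T and NK cells, had 61, 114 and 193 UMIs in 23, 32 and 36 cells (1.26, 0.83 to 1.70). Phactr3 had 10, 27 and 56 UMIs in 6, 18 and 21 cells (2.08, 1.10 to 3.22), and the carbonic anhydrase gene Car2 18, 37 and 64 UMIs in 12, 15 and 20 cells (1.43, 0.65 to 2.27). Without the cells with 10 or more S100a8 and S100a9 UMIs, Phf5a, Rnaset2a, Cd7 and Car2 were under 2-fold, at 0.868, 0.719, 0.628 and 0.505. The sign of Ccl4 turned, at -0.125. By this choice the low dose CPM was above the vehicle for all 10. As these were picked for size and direction, they are a description.

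Among the genes far below the vehicle, 10 are listed here: Hp, Mmp8, Lyz1, H2-Aa, Ifitm1, Ccl6, Saa3, H2-Eb1, Ifitm3 and H2-Ab1. In each of them a single vehicle cell held between 53.33% and 100% of the vehicle UMIs. Lyz2 and Cd74, which were also far below the vehicle and lay mostly in the Lyz2-rich cell, are not among these 10. Granule proteins of neutrophils (Mmp8, Hp) and antigen presentation genes of B cells and macrophages (H2-Aa, H2-Ab1) are among them. The list of 10 neutrophil markers gave 24150, 10690 and 1586 CPM in NK cells, led by S100a9, but 81.37% of the vehicle UMIs came from a cell with 23634 UMIs and 86.0% of the low dose UMIs from a cell with 10906 UMIs, and the median cell had 8, 6 and 6 UMIs. Monocyte markers gave 2425, 563 and 566 CPM and B cell markers 1834, 156 and 151 CPM, with 79.66% and 81.23% of the vehicle UMIs in the Lyz2-rich cell; Cd79b was at 0 in vehicle cells. Macrophage and Kupffer markers had 1, 2 and 12 UMIs, with Clec4f at 0, and epithelial keratins of 4T1 cells were at 0 in all 3 groups. Red cell and platelet markers gave 36.0, 146 and 3634 CPM, of which 1 high dose cell held 96.69%, with 902 globin UMIs. Without the Lyz2-rich cell, 30 of 1445 genes (2.08%) were higher and 26 (1.80%) lower at the high dose, so that the number of lower genes depended on it; the part of these transcripts in the other results was not tested.

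The 28 high dose NK cells of the library labelled spleen were a mixed group. Of them, 25 had Gzma, 21 Gzmb, 23 Prf1 and 25 Ccl5, and the median cell had 13740 CPM of Gzma, 1140 of Gzmb, 1226 of Prf1 and 23910 of Ccl5. Depth ran from 959 to 126369 UMIs. The deepest cell had 2 UMIs of Eomes and no other rule gene, no Gzma, Gzmb, Prf1 or Ccl5, and 233 UMIs of keratins. A cell of 33529 UMIs had 9 UMIs of Ncr1, 2 of Gzma and 357 of the complement C1q genes of macrophages, and a cell of 8806 UMIs with 14.46% mitochondrial UMIs had 27 of C1q and no Gzma.

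Granzyme C (Gzmc, chr14:56231441-56234656), a granzyme of strongly activated killer cells, was detected in 6 of the 28 cells (21.43%, 8.30 to 40.95) with 373 UMIs, and in the library labelled liver in 0 of the 55 high dose cells. All 6 cells had 9207 UMIs or more, a depth that 9 of the 28 cells and 3 of the 55 reached, so that a difference between the libraries in the share of cells with Gzmc could not be told apart from depth. The 3 cells with the most Gzmc had 143, 131 and 84 UMIs of it at depths of 34415, 19095 and 22030 UMIs, together with 27, 18 and 18 UMIs of Ncr1. All 3 exceeded 10000 CPM over the proliferation list, at 11250, 12100 and 11710 CPM. Their Ccl5 counts were 1, 0 and 26 UMIs. Low Ccl5 was not particular to them, as a cell of 17689 UMIs without Gzmc also had 26. Of the other cells with Gzmc, one of 10556 UMIs with 4 UMIs of Gzmc had 0 of Ccl5, and one of 33529 UMIs with 10 had 44. Higher counts stood in the cell of 9207 UMIs with 1 UMI of Gzmc, at 143, and in one of 18716 UMIs without Gzmc, at 198. Gzmd, a neighbouring granzyme gene, had 39 UMIs, 20 and 19 of them in the cells with 131 and 84 Gzmc UMIs. Granzyme A itself varied among these cells, with 1083, 16 and 61 UMIs.

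At least 10 Gzmb UMIs were found in 11 of 28 cells (39.29%, 21.5 to 59.4), against 6 of 55 (10.91%, 4.11 to 22.2) in the library labelled liver. Depth differed between these cells: the 11 had a median of 9207 UMIs and the 6 a median of 5142. A total of 5 cells exceeded 10000 CPM over the proliferation genes, against 3 of 55; among these 5, the deepest cell carried keratins and no granzyme, and the other 4 carried Gzma and Gzmb. Xcl1 had 65 UMIs in 7 cells, 32 of them in a cell of 6250 UMIs that also had 119 UMIs of Gzma and 23 of Ncr1.

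**Figure D4:**
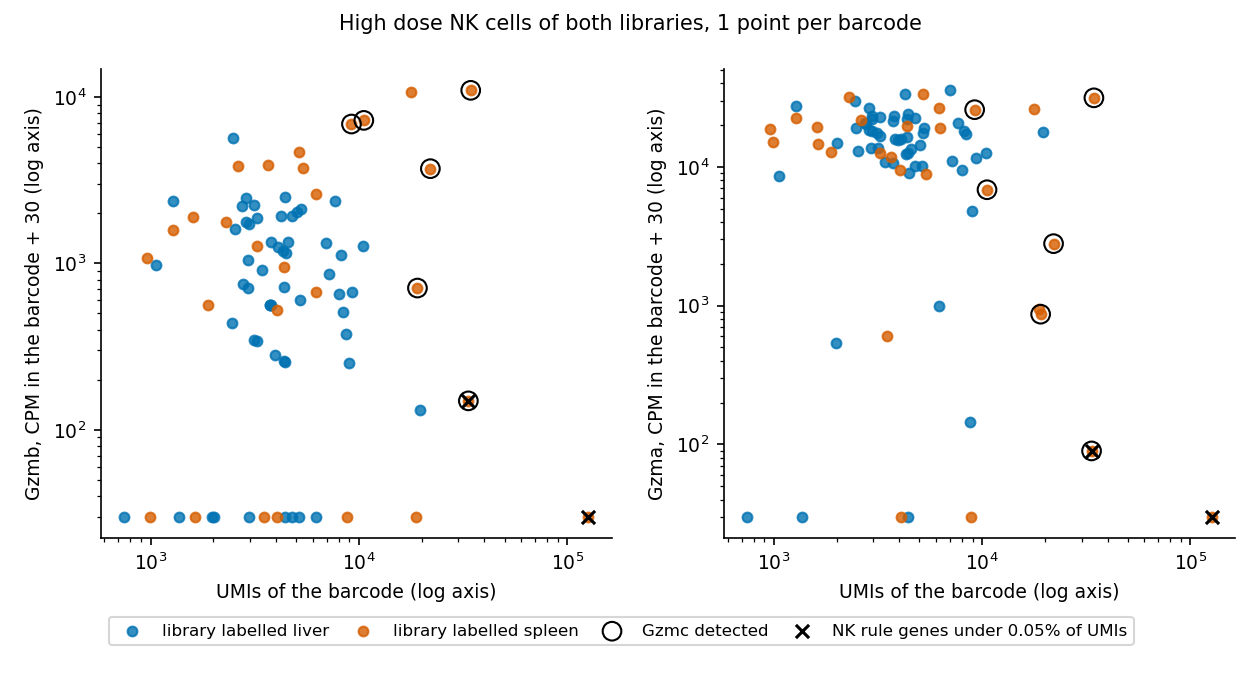
Gzmb and Gzma (CPM with 30 added, log axis) against total UMIs (log axis) for each of the 28 high dose NK cells of the library labelled spleen and the 55 of the library labelled liver. Rings mark the 6 cells with Gzmc and crosses the 2 cells whose rule genes are under 0.05% of their UMIs; the ringed cells lie at 9207 UMIs and above.

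The 9 low dose cells of the library labelled spleen had 6 cells with Gzma, at 25 to 50 UMIs each, and a median depth of 1734 UMIs. A cell of 7656 UMIs had 17 UMIs of Il7r, 4 of Ncr1 and no Gzma, and 2 cells with 42.59% and 42.79% mitochondrial UMIs had no Gzma, Prf1 or Ccl5. All 28 Xcl1 UMIs of the group came from 1 cell. Of the 2 vehicle cells, the one of 4958 UMIs had 44 UMIs of Gzma and 10 of Ncr1, and the one of 15942 UMIs had 185 of Lyz2, 7 of Ncr1 and no Gzma. Summed over a group, Gzma stood at 2105, 9649 and 8180 CPM from the vehicle to the high dose, and with so few cells no comparison among the doses was made in this library.

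Between the libraries, high dose NK cells differed 2-fold at many genes, and at fewer without the cells with weak rule genes. Over all 28 and 55 cells, 273 of 1993 genes (13.7%) were 2-fold or more higher in the library labelled spleen and 317 (15.9%) lower, and without the 2 weak cells 80 of 1479 (5.41%) were higher and 121 (8.18%) lower. Leaving them out raises the level of the rule genes by construction, so no ratio of a rule gene is read here. The 2 weak cells were chosen after the data were seen, and the ratios that follow leave them out, with the value over all 28 cells beside those that moved most. Organ, library and depth differ together here and cannot be told apart.

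Effector genes split. Gzmb was higher in the library labelled spleen, at 4548 against 923 CPM, a log2 ratio of 2.30 (2.09 to 2.51), or 1.46 over all 28 cells. It was 0.25 when no UMI of CD3 or CD79 was allowed, which left 24 and 47 cells. That setting did not leave out weak cells. Its 24 cells still included the deepest cell, which held 126369 of their 268537 UMIs and no Gzmb or Gzma. Of the 908 Gzmb UMIs in the 26 cells, 1 cell held 376 (41.41%) and the 2 leading cells together 62.33%. Gzma stood at 14720 against 15330 CPM (-0.06), or -0.91 over all cells and -1.62 with no UMI of CD3 or CD79 allowed, and 1 cell held 36.82% of the Gzma UMIs of the 28; Prf1 differed by 0.05, or by -0.79 over all cells. Gzmc had 363 UMIs against 0, and with a floor of 3 counts in place of 0 the log2 ratio was 7.29, with a lower interval limit of 6.98; it was 6.48 over all cells and 5.746 with no UMI of CD3 or CD79 allowed. Srgn was higher by 1.07 (0.81 to 1.35), or by 0.35 over all cells. Of 15 granule genes measured, 5 were higher and none lower, against 6.69% and 12.7% of the 3633 genes with at least 20 UMIs. Over all 28 cells 5 of 16 were higher and 3 lower, with a median of -0.36, against 14.6% and 18.1% of genes. Serpinb9b, a protease inhibitor of the family that shields killer cells from granzyme B, ran the other way, with 27 UMIs in 8 of 28 cells against 233 in 39 of 55, a log2 ratio of -2.74 (-3.37 to -2.16), or -3.59 over all cells.

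Chemokines split as well. Ccl5 was lower in the library labelled spleen, at -1.37 (-2.20 over all 28 cells, and under 2-fold, at -0.543, as a mean of CPM over the cells), and 25 of 28 and 53 of 55 cells had it and the median cell had 23910 against 31190 CPM. Xcl1 was higher, at 306 against 31.0 CPM (3.30, 2.23 to 4.58, or 2.54 over all cells), in 6 of the 26 cells against 8 of 55. Ccl3 was higher by 1.06 (0.69 to 1.43), or by 0.21 over all cells, and Tgfb1 by 1.43 (0.70 to 2.19), and Cd69, an early activation marker that retains lymphocytes in tissue, had 19 UMIs in 7 of 28 cells against 3 in 3 of 55.

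Of 17 trafficking genes measured, 7 were lower and 1 was higher in the library labelled spleen (7 and 2 over all 28 cells), against 12.7% and 6.69% of all genes measured. Over all 28 cells 16 of 24 activating receptor and adaptor genes were lower and 1 was higher, with a median of -1.228. Of 9 inhibitory receptors 5 were lower and 1 was higher, with a median of -1.018, against 18.1% and 14.6% of all genes over the same cells. Both receptor counts include the 2 weak cells. These held 44.47% of the UMIs of the group, with rule genes under 0.05% of their own UMIs, so the counts are not read as a property of the other cells. Among transcription factors, Klf2 stood at 300.5 against 1133 CPM (-1.91, -2.34 to -1.51, or -2.60 over all cells) and was detected in 21 of 28 and 53 of 55 cells. S1pr5, the receptor by which NK cells leave tissues, was lower by 1.35 on the log2 scale (-2.33 to -0.46; -2.20 over all cells), in 9 of 28 and 28 of 55 cells. Itga4 was also lower (-1.42, -1.83 to -1.02, or -2.25 over all cells). The IL-18 receptor genes Il18r1 and Il18rap had log2 ratios of -2.27 (-3.47 to -1.24) and -1.88 (-2.53 to -1.27), and the maturation factor Zeb2 -1.43 (-1.97 to -0.92). These ratios depended on how cells were weighted: as a mean of CPM over the 28 cells, in which deep cells count no more than others, Klf2 was at -0.883, S1pr5 at -0.486, Itga4 at -0.695, Il18rap at -0.667 and Zeb2 at -0.818, all under 2-fold, and Il18r1 at -1.684.

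Genes of the proliferation list that differed 2-fold were higher. Of the 24 proliferation genes 10 were higher and none lower without the weak cells (17 and none with them), against a background of 6.69% and 12.7%, and the median log2 ratio was 0.85. Few cells carried these calls: 4 of the 26 held 1108 of the 1356 UMIs of the list (81.71%), and the median cell had 2796 CPM over it, against 3665 in the library labelled liver. Mcm5, a subunit of the replicative helicase, had 42 UMIs in 11 of 28 cells against 3 in 2 of 55, a log2 ratio of 3.33 over all cells. Without the weak cells the ratio of Mcm5 was 3.48 (1.78 to 5.85), and Top2a was higher by 1.16 (0.43 to 1.92). Mki67 differed by 0.16 (-0.49 to 0.81), or by -0.09 over all cells, 1.282 without the deepest cell of each group and 1.844 without the cells with 10 or more S100a8 and S100a9 UMIs. Of 8 heat shock genes measured, 3 were higher and none lower (5 and none with the weak cells), with a median of 0.93, and the chaperone Hsp90aa1 stood at 1102 against 310 CPM (1.83, 1.45 to 2.22). Of 5 genes that the study names in NK cells, 1 was higher and 2 were lower over all 28 cells, with a median of -0.526, against 14.6% and 18.1% of genes. That count includes the 2 weak cells, which held 44.47% of the UMIs of the group. Cd160 was at 250 against 132 CPM (0.93, 0.27 to 1.60, or 0.27 over all cells), in 16 of 28 and 15 of 55 cells, and Socs3 had 27 UMIs in 3 cells against 1 UMI in 1. Junb (1.047, 0.603 to 1.499) and Jun (2.78, 1.51 to 4.33) were higher, and Jun was detected in 18 of 28 against 4 of 55 cells. Shares of cells depend on depth, which had a median of 4772 UMIs in the library labelled spleen and 4067 in the library labelled liver: with every cell thinned to 500 UMIs, Gzmb was detected in 42.86% against 34.55%, Gzma in 78.57% against 90.91% and Klf2 in 25.0% against 41.82% of cells.

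**Figure D5:**
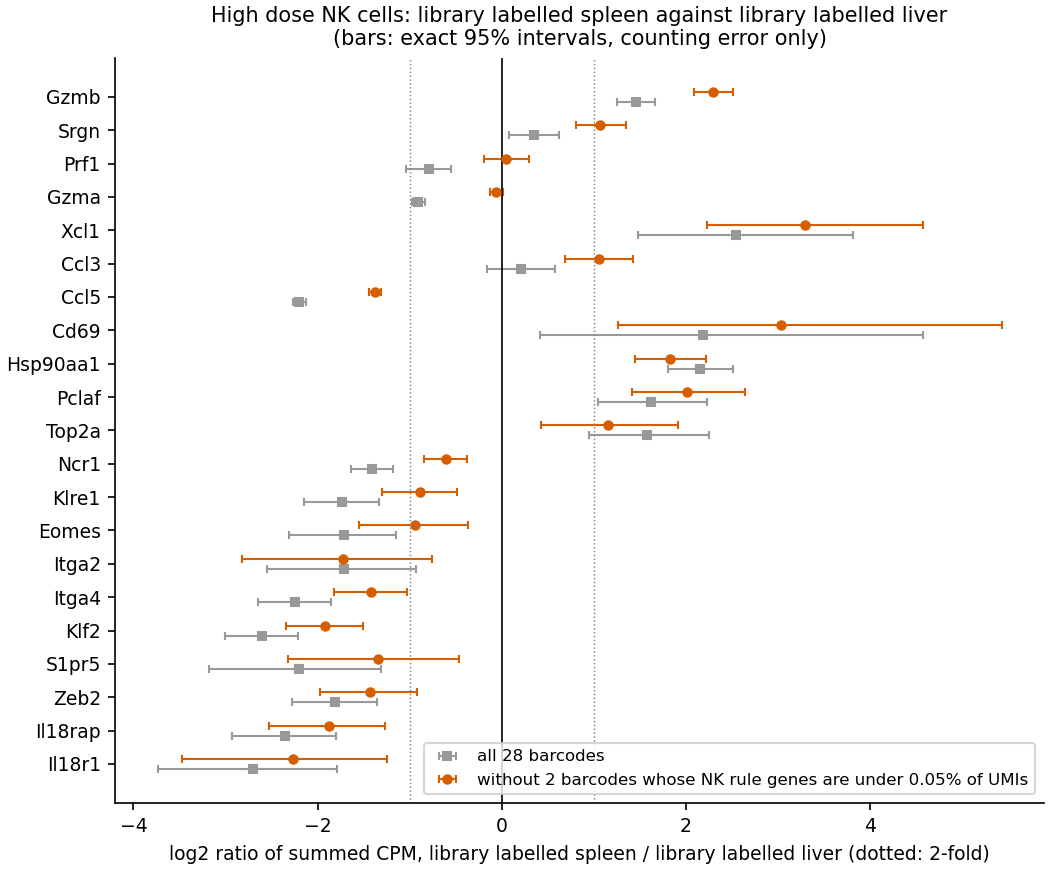
Log2 ratio of CPM in high dose NK cells, library labelled spleen against library labelled liver, for 21 genes, over all 28 cells and without the 2 cells with weak rule genes, with exact 95% intervals for counting error. Gzmb, Xcl1, Hsp90aa1 and Top2a lie above 0 and Klf2, S1pr5, Il18r1 and Ccl5 below 0 in both, whereas Gzma and Prf1 lie within 0.1 of 0 only when the weak cells are left out.

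Transcripts of other cells stood beside these differences. With all 28 cells, macrophage and Kupffer markers gave 1207 CPM, 82.95% of it in the C1q-rich cell, and keratins 668 CPM, 98.33% of it in the deepest cell. Of the 10 genes most above the library labelled liver without the weak cells, namely Gzmc, Il1b, Ly6e, Apoe, Ifitm3, Plac8, Spp1, Ifi27l2a, Xcl1 and Ctss, several belong to macrophages and monocytes: Apoe and Il1b had 179 and 79 UMIs in 6 and 2 cells. Spp1, osteopontin, was more widely spread, in 13 of 26 cells against 7 of 55 (3.761, 3.02 to 4.601). The 10 most below it were Serpinb9b, Gm2682, Il18r1, Arl4d, Klhl6, Ypel3, Arhgef18, Klf3, Pdcd4 and Zbtb20, with log2 ratios from -2.74 to -1.93 and counts spread over 25 to 44 of the 55 cells of the library labelled liver; the translation inhibitor gene Pdcd4 had 33 against 176 UMIs (-2.05, -2.63 to -1.50, or -2.81 over all cells). The part of other cells' RNA in the differences between the libraries was not tested.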

How the data were processed

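For 2 droplet libraries the authors deposited UMI counts of each gene and hashtag in each cell-containing barcode, without normalization and without cell type labels. The matrix headers name Cell Ranger 5.0.0 and the submitters' processing notes Cell Ranger 6.0.0 with mm10. Cells were chosen by the rule at the head of the report, and the members, the gene lists and the comparisons were chosen with earlier results of these data known. No doublet caller was used; the dominant hashtag acts against doublets between groups and the limits on CD3 and CD79 against those with T or B cells, and what share they remove was not measured.

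UMIs were summed per group and library over 32285 genes and scaled to CPM. Ratios carry exact conditional binomial intervals, levels exact Poisson and shares exact Clopper-Pearson intervals at 95%, all for counting error only, with a floor of 3 counts for 0. A group of fewer than 20 cells entered no ratio. The library labelled liver had 79585807 UMIs, 766670 of them in NK cells, and the library labelled spleen 35672251 and 403357; 3 counts correspond to 3.91 and 7.44 CPM over all NK cells. The intervals and the ratio were tested on simulated data with Poisson counts, the counting error that they assume. The simulation held no spread between cells or mice, so it cannot show how well the intervals cover it. Comparison classes were T cells (CD3 sum of 2 or more), B cells (CD79 sum of 3 or more) and neutrophils (Retnlg, Csf3r, S100a8 and S100a9 sum of 50 or more), each at most 1 for the other sums, though neutrophil genes limited neither T nor B cells.

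The named genes are the rule genes and given markers, in each list the up to 4 most abundant members and the up to 2 with the largest ratio, the 10 largest differences each way (the same way at both doses), the 10 most abundant genes and genes the study names, of which some items are not reported here. Further genes were named after their values were seen. Alternatives were a rule sum of 3, limits of 0, removal of cells with 10 or more S100a8 and S100a9 UMIs, HTODemux, a hashtag margin of 2 times, a filter to 200 genes and under 10% mitochondrial UMIs, thinning to 1000 UMIs, other denominators, CPM without the 20 most abundant genes, a mean over cells and a minimum of 20 UMIs; removal of cells with weak rule genes, of the deepest cell and of cells with fewer than 3 Gzma UMIs, and a limit of 50 neutrophil UMIs on T cells and the denominator, were added after seeing the data. Positions are from GENCODE release M21, which held 32235 of the gene identifiers. Python 3.11.15, numpy 2.4.6, scipy 1.17.1, pandas 2.3.3, R 4.3.3 and Seurat 5.3.0 were used.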

Additional observations from a re-analysis of the deposited data

Results flagged for a closer look

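Barcodes without a dominant hashtag, which enter no comparison above, also held NK cells. In the library labelled liver 7 of 680 such barcodes (1.03%, exact interval 0.415 to 2.11, counting error only) met the transcript rule, with 6 to 80 UMIs of Gzma each at depths of 1799 to 19440 UMIs. The limit that a count of 0 allows would be 3 counts. In each of them 2 hashtags led: the barcode of 5386 UMIs had 1088 UMIs of A0301 and 1278 of A0305, and the one of 11444 UMIs had 719 of A0305 and 1822 of A0310. The library labelled spleen had 3 such barcodes, with 35, 33 and 3 UMIs of Gzma. Their group is not known, and why they carry 2 hashtags was not tested.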

How the results depend on the processing

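No paired analysis was run: each group was 1 pooled sample per library, and the groups were not compared across the 2 libraries as pairs. HTODemux left 11 high dose NK cells in the library labelled spleen, and its low dose group had 9, so those 2 comparisons of the libraries were not run, nor were dose ratios in that library.

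The NK share at the high dose was above that of the vehicle under all alternatives run, by 0.762 to 1.84 points in the library labelled liver and 0.7796 to 1.866 in the library labelled spleen, where only the filter to 200 genes and under 10% mitochondrial UMIs, at 1.866, put it outside the interval given in the report. The interval included 0 for the library labelled spleen with HTODemux (0.7851, -0.2013 to 1.839), for both libraries with the non-neutrophil denominators, and for the low dose in the library labelled liver without cells with 10 or more S100a8 and S100a9 UMIs (the S100 cells below; 0.4875, -0.0181 to 1.004).

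Counts of genes 2-fold higher or lower depended on few cells. At the high dose (31 and 45) they were 18 and 27 with CD3 and CD79 limits of 0, 7 and 9 without cells with 10 or more S100a8 and S100a9 UMIs, and 225 and 146 at a minimum of 20 UMIs; 26 were lower with HTODemux and 26 without the weak cell. At the low dose (23 and 44) they were 9 and 5 without the S100 cells, 36 and 72 at a hashtag margin of 2 times, and 176 and 162 at 20 UMIs; 36 were higher as a mean over cells, and 26 and 23 were lower without the weak cell and without the deepest cell of each group. Between the libraries (273 and 317) they were 110 and 145 at a rule sum of 3, 74 and 93 without the S100 cells, 145 and 133 as a mean over cells, 663 and 820 at 20 UMIs, 80 and 121 without the weak cells, 125 and 155 without the deepest cells, and 81 and 130 among cells with 3 or more Gzma UMIs. Fewer cells also leave fewer genes tested.

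Of 148 named ratios, 109 kept their sign under all alternatives run and 39 did not, 24 of them under 2-fold to begin with, such as Prf1 at the high dose (0.237, and -0.301 without the S100 cells), Junb at the low dose (-0.404 and 0.211) and Cd160 at the low dose (0.894 and -2.814). Among ratios of 2-fold or more, changes of sign without the S100 cells were, at the high dose, Fcgr3 0.072, Ccl4 -0.125, Fos 0.809, Ccl6 0.809, Saa3 1.546, Ifitm3 1.809, H2-Ab1 0.224 and Asf1b 0.224, at the low dose Zfp36 0.338 and Fos 1.093, and between the libraries Ifitm3 -0.529 and Ifi27l2a -0.944. H2-Eb1 was 0.792 with HTODemux and 1.079 without the weak cell, H2-Aa 1.079 without it, and Klrb1c 0.761 between the libraries as a mean over cells; the cause was not tested. At the high dose Gzma ranged from 0.195 to 0.621, Ncr1 from 0.374 to 0.893, Ccl5 from 0.187 to 0.66, Cd160 from 1.224 to 3.189 and Bcl2 from -1.195 to -0.476.

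Other named ratios of 2-fold or more fell under 2-fold with their sign kept. At the high dose these were, without the S100 cells, Socs3 -0.191, Ifi27l2a -0.36, Car2 0.505, Phf5a 0.868, Cd7 0.628, Rnaset2a 0.719, Tox 0.809, H2-Aa -0.776 and H2-Eb1 -0.36; with CD3 and CD79 limits of 0, Ccl4 0.655, Cd44 -0.786, Birc5 0.51, Ube2c 0.785, Ripk1 -0.56, Tox 0.73 and Bach2 0.971; and as a mean over cells, Slamf7 0.814. Lamp2 was -0.656 and Cd247 0.929 with HTODemux. In the low dose comparison Il7r was 0.613 with limits of 0, Jun -0.077 without the S100 cells, Tgfb1 0.817 without the deepest cells and Bcl2 -0.913 at a hashtag margin of 2 times. Between the libraries, Gzmb was 0.251 with limits of 0, which kept the deepest cell, and Ccl5, Klf2, S1pr5, Itga4, Il18rap and Zeb2 were between -0.883 and -0.486 as a mean over cells.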
